A study of Mus musculus with 8 samples.

Results

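Oncofetal genes of liver are genes that the fetal liver expresses strongly, that fall silent or low after birth, and that can return in injured or cancerous liver. The 6 members, Afp, Igf2, H19, Gpc3, Dlk1 and Golm1, were chosen by name among the 22504 genes of the series. A row was found for 5 of them, and H19 was not analysed here. RNA of 8 Fah-/- mice on the 129S4 background was sequenced. Without Fah, the enzyme that completes the breakdown of tyrosine, toxic products build up in hepatocytes, and such mice stay healthy only while NTBC stops the pathway at an upstream enzyme. All 8 mice carried the deletion and no wild-type or fully NTBC-treated mouse was analysed here, so no comparison was with uninjured liver. The C 8w group (3 liver samples, 1a, 2a and 3a) had 8 weeks of moderate chronic liver injury (MCLI) on 2.5% of the NTBC dose, and these are called MCLI livers. The C 8w + A 4w group (3 liver samples, C096, C097 and C098) had the same 8 weeks and then 4 weeks of severe acute liver injury (SALI) without NTBC, and these are called SALI livers. The C 12w group (2 samples labelled as tumor, 2e and 3e) had 12 weeks of MCLI, and these are called tumors. Tumor tissue and the longer MCLI cannot be told apart in their comparison with the MCLI livers. The age of the mice was not given in the sources used here.

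Alpha-fetoprotein, the product of Afp, is the main plasma protein of the fetus and is replaced by albumin around birth. It is the classical serum marker of hepatocellular carcinoma. Igf2 encodes a fetal growth factor that is expressed from the paternal allele only, and its neighbour H19 is a noncoding RNA expressed from the maternal allele. Gpc3 encodes glypican-3, a heparan sulfate proteoglycan anchored to the cell surface. Dlk1 encodes a membrane protein related to the Notch ligands that marks fetal hepatoblasts. Golm1 encodes the Golgi membrane protein GP73, which is also found in serum in liver disease.

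The stretches before the RefSeq starts of Afp, Gpc3 and Dlk1 are shown because these genes were the member with the largest difference between groups, the member whose group means lay closest together, and the member that was nearly absent in the MCLI livers. Each is the 250 bases before the start (RefSeq, GRCm38.p6), written in the direction of transcription. Afp lies at chr5:90490464-90490713 on the plus strand, Gpc3 at chrX:52613975-52614224 on the minus strand and Dlk1 at chr12:109452573-109452822 on the plus strand. Capitals mark matches on either strand to 5 motifs. The first FOXA motif was read as TGTTTAC, and for the second FOXA motif the letters were TGTTTGC. The C/EBP motif had the letters TTGCNNAA, where N is any base. For the TATA box the letters were TATAAA, and a GC box was counted where GGGCGG stood.
Afp: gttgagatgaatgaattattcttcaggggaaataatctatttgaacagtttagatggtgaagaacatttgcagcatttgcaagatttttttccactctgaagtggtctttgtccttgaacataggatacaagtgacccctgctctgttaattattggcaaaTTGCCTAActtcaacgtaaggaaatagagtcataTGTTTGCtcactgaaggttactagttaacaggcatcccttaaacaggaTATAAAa
Gpc3: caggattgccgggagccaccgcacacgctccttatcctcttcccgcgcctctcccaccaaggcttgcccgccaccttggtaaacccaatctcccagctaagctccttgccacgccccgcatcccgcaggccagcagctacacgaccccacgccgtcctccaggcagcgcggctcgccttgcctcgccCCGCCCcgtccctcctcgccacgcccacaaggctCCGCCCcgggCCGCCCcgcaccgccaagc
Dlk1: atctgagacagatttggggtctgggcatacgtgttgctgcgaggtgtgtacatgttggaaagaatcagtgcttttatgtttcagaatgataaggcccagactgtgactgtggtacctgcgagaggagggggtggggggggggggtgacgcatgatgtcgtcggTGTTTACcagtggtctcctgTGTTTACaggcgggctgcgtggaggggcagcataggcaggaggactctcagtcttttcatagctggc
The 250 bases before the Afp start held 1 match each to the C/EBP motif, the second FOXA motif and the TATA box, and these did not overlap each other. Of all 32851 RefSeq starts, 9.56% held the C/EBP motif, 4.30% the second FOXA motif and 12.4% the TATA box in the same window. The Dlk1 stretch held 2 matches to the first FOXA motif, which 3.17% of all starts held. The Gpc3 stretch held 3 GC boxes, which 32.7% of all starts held at least once, and no match to the other 4 motifs. Golm1 had 4 GC boxes and 1 TATA box, and 2 of the 4 Igf2 starts had a match, to the GC box. The GC content of the window was 36.0% for Afp, 54.8% for Dlk1, 65.6% for Golm1 and 71.6% for Gpc3, with a median of 52.4% over all starts. A match is a string of letters and not a bound site.

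**Figure D1:**
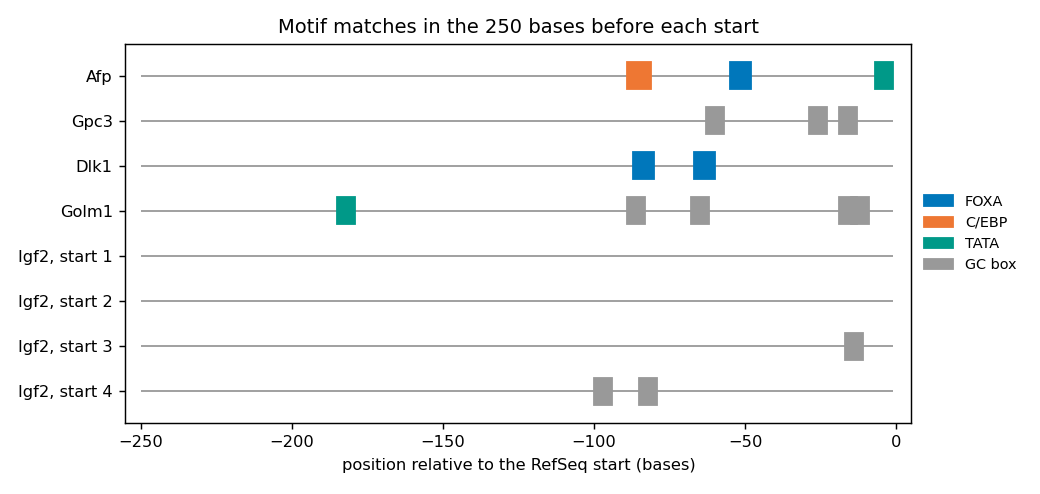
Matches to short motifs in the 250 bases before the RefSeq start of each member, with the position relative to the start on the x axis and 1 line for each start. Colours name the motif family. Matches to the C/EBP string lay only before Afp among these starts, and GC boxes lay before Gpc3, Golm1 and 2 Igf2 starts.

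The authors deposited expression as FPKM, a fragment count scaled to gene length and to the mapped fragments of the sample, so that levels can be compared between genes. FPKM holds no read counts, so depth is unknown and no counting error can be given. The summed FPKM of a sample was between 324735 and 399342, and 9797 to 10658 genes reached an FPKM of 1. Groups were compared as log2(FPKM + 1) with limma over the 10244 genes that reached an FPKM of 1 in 4 or more samples (the floor), and a gene was called at a Benjamini-Hochberg adjusted p under 0.05. Fold changes on this scale understate the change of low genes. The samples came from individual mice, so the spread behind each test is that between 3, 3 and 2 mice. The median of all genes was 0.12 higher (log2) in both the SALI livers and the tumors than in the MCLI livers, and -0.01 after median-ratio scaling. With that scaling, 46.7% rather than 64.2% of the calls were higher in the SALI livers than in the MCLI livers, and 44.0% rather than 63.6% were higher in the tumors. MCLI livers and tumors carry one series of codes in the labels and SALI livers another, so code series and SALI cannot be told apart. Alb was listed at 0 in all MCLI livers and tumors, 5 samples, and at FPKM between 12946 and 16950 in the SALI livers. The genes Gapdh and Ppia, which cells of every kind express, split in the same way. Gapdh averaged 0.180 in the MCLI livers, 0.119 in the tumors and 81.2 in the SALI livers. Ppia averaged 0.491, 0.415 and 797. Whether genes were quantified alike in both code series was not tested, and this limit applies to every comparison that includes the SALI livers. The sequence that a member shares with other genes is given beside its values, but Alb shares 0%, so a low share does not set a gene apart from such rows. The comparison of tumors with MCLI livers lies within one code series.

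The extraction protocol in the labels names retinas, against the labelled tissue. The 6 retina markers summed to an FPKM of at most 0.205 in any sample, and the 10 hepatocyte markers to between 4939 and 12063. Fah itself was read at an FPKM of 16.8, 16.5 and 15.6 in the MCLI livers, 14.4 and 13.5 in the tumors, and 5.02, 6.11 and 6.36 in the SALI livers. The row covers the whole gene, and it was not determined here whether the reads lay outside the deleted part, so it does not check the genotype.

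Afp showed the largest difference of the members and the same order of groups in every sample. Its FPKM was 19.3, 15.4 and 37.6 in the MCLI livers, 391 and 177 in the tumors 2e and 3e, and 1533, 1147 and 1278 in C096, C097 and C098. All SALI livers lay above both tumors, which lay above all MCLI livers, so that no groups overlapped. The mean was 24.1 ± 11.8 (SD, n = 3) in the MCLI livers, 284 ± 151 (n = 2) in the tumors and 1319 ± 196 (n = 3) in the SALI livers. SALI livers were 54.7-fold above MCLI livers (log2 fold change 5.81 ± 0.37 SE, limma adjusted p = 1.0e-05). Tumors were 11.8-fold above MCLI livers (3.49 ± 0.41, limma adjusted p = 0.00197), and SALI livers were 4.65-fold above tumors (2.31 ± 0.41, limma adjusted p = 0.00375). None of the sequence of Afp was shared with another annotated gene, as was also so for Alb. In bulk RNA a larger number of cells with Afp and more Afp per cell cannot be told apart.

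**Figure D2:**
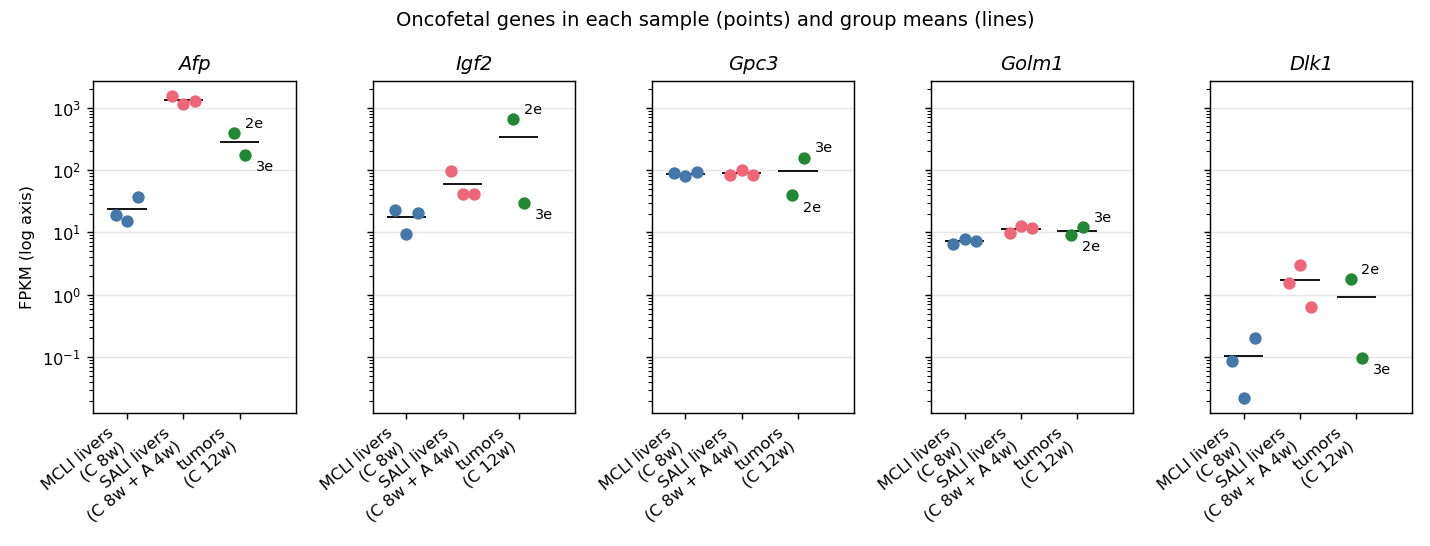
FPKM of the 5 members with a row, on a log axis, in the MCLI livers, SALI livers and tumors; each point is a sample, each line a group mean, and the tumors are named. The 3 groups do not overlap for Afp, while samples 2e and 3e lie on either side of all other Gpc3 values and lie far apart for Igf2 and Dlk1.

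Igf2 was high in a single sample. Its FPKM was 23.1, 9.37 and 20.5 in the MCLI livers, 96.6, 41.5 and 41.9 in the SALI livers, 656 in sample 2e and 29.9 in sample 3e. All SALI livers and both tumors lay above all MCLI livers, and 3e lay below every SALI liver. Means were 17.7 ± 7.29 (SD, n = 3) in the MCLI livers, 60.0 ± 31.7 (n = 3) in the SALI livers and 343 ± 442 (n = 2) in the tumors. None of the 3 comparisons passed the test. The log2 fold change was 1.68 ± 0.96 SE for SALI livers against MCLI livers (limma adjusted p = 0.194), 3.02 ± 1.07 for tumors against MCLI livers (limma adjusted p = 0.0778) and -1.34 ± 1.07 for SALI livers against tumors (limma adjusted p = 0.370). The spread of the fit held the gap between 2e and 3e. Without tumors the 3.40-fold difference between SALI livers and MCLI livers passed the test (log2 fold change 1.68 ± 0.40 SE, limma adjusted p = 0.00895), and it also passed without 2e (limma adjusted p = 0.00894) or without 3e (limma adjusted p = 0.00898). Against MCLI livers, the tumors were 5.23 higher on the log2 scale without 3e (limma adjusted p = 0.00186) and 0.82 higher without 2e (limma adjusted p = 0.282). Against the tumors, the SALI livers differed by -3.55 without 3e (limma adjusted p = 0.00264) and by 0.86 without 2e (limma adjusted p = 0.251). In these fits the lone tumor was assumed to vary like the other groups. Of the sequence of Igf2, 61.2% was shared with the annotated gene Gm49394, which was not analysed here, and reads of the pair could be split by the counting.

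Gpc3 was already expressed at 8 weeks, and its group means differed by less than the spread between samples. Its FPKM was 91.2, 80.2 and 92.3 in the MCLI livers and 83.2, 99.8 and 83.9 in the SALI livers, which overlapped. Of the tumors, 2e had the lowest value of all samples, 39.3, and 3e the highest, 157. Means were 87.9 ± 6.69 (SD, n = 3) in the MCLI livers, 89.0 ± 9.40 (n = 3) in the SALI livers and 98.2 ± 83.3 (n = 2) in the tumors. The log2 fold change of SALI livers against MCLI livers were 0.015 ± 0.41 SE, with a 95% interval from -0.92 to 0.95 (limma adjusted p = 0.980). That of tumors against MCLI livers were -0.15 ± 0.46, with an interval from -1.20 to 0.90 (limma adjusted p = 0.829), and that of SALI livers against tumors were 0.17 ± 0.46 (limma adjusted p = 0.807). These intervals leave room for a change of about 1 on the log2 scale in either direction. The tumors lay on opposite sides of the MCLI livers, by 0.83 without 2e (limma adjusted p = 0.00739) and by -1.14 without 3e (limma adjusted p = 0.00544). Against the tumors, the SALI livers differed by -0.82 without 2e (limma adjusted p = 0.00599) and by 1.15 without 3e (limma adjusted p = 0.00170). These fits set 1 tumor against 3 livers, take the spread from the other groups and do not show how tumors vary.

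Golm1 rose modestly in the SALI livers, with little spread. Its FPKM was 6.46, 7.80 and 7.40 in the MCLI livers, 9.80, 12.8 and 11.9 in the SALI livers, and 9.23 and 12.0 in 2e and 3e. Every SALI liver and tumor lay above every MCLI liver, and the SALI livers and tumors overlapped. SALI livers (11.5 ± 1.55, SD, n = 3) were 1.59-fold above MCLI livers (7.22 ± 0.684, n = 3), with a log2 fold change of 0.60 ± 0.14 SE (limma adjusted p = 0.0108). Without sample 1a it was 0.53 ± 0.16 (limma adjusted p = 0.0520). Tumors (10.6 ± 1.99, n = 2) were 1.47-fold above MCLI livers and did not pass the test (0.49 ± 0.16, limma adjusted p = 0.0598), but passed without 2e (0.67 ± 0.17, limma adjusted p = 0.0193). SALI livers and tumors differed by 0.11 ± 0.16 (limma adjusted p = 0.636). Antisense to Golm1 lies Naa35, in 27.95% of the 50-base windows of Golm1, and the strand setting of the counting was not given in the sources used here. Naa35 itself had an FPKM between 9.33 and 10.4 in the MCLI livers, 7.64 and 8.29 in the SALI livers and 7.69 and 9.27 in the tumors, the other direction to Golm1.

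Dlk1 was the lowest member. Its FPKM was 0.0858, 0.0225 and 0.202 in the MCLI livers, 1.54, 3.03 and 0.645 in the SALI livers, 1.77 in 2e and 0.0964 in 3e. Sample 2e lay among the SALI livers and 3e among the MCLI livers, while SALI livers and MCLI livers did not overlap. The gene did not reach an FPKM of 1 in 4 samples and was not tested: it entered a fit only on a floor of 2 samples, which it passed through the samples where it was high. On that floor, as a description, the difference on the log2(FPKM + 1) scale was 1.22 ± 0.39 SE for SALI livers against MCLI livers, 0.66 ± 0.43 for tumors against MCLI livers and 0.56 ± 0.43 for SALI livers against tumors. Without 2e the last became 1.22 and without 3e -0.11. At levels near or under 1, depth limits what these values can show.

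Over the 4 members past the floor, all of which had an FPKM of at least 1 in all 8 samples, 2 were called higher in the SALI livers than in the MCLI livers (Afp and Golm1) and none lower. Of all genes tested, 25.3% were called higher and 14.1% lower in that comparison. In tumors against MCLI livers 1 member, Afp, was called higher and none lower, with 12.2% of all genes higher and 6.98% lower. In SALI livers against tumors, Afp alone was called higher and none lower, with 17.4% and 15.4% of all genes. Afp, Igf2 and Golm1 had groups that did not overlap in the first and in the second of these comparisons, as had 61.4% and 54.5% of all genes. Afp alone did so in the third, as had 52.3% of all genes. With only 4 members, counts of 2, 1 and 1 beside these shares are no result about the members as a group. The same shares of all genes are the background of the gene lists described further on. The first and second comparisons share the MCLI livers. The median log2 fold change of the 4 members was 1.14 in the first comparison, 1.76 in the second and 0.14 in the third, against 0.12, 0.12 and 0.01 over all genes. The median in the second lay between Golm1 (0.49) and Igf2 (3.02), neither of them called, and Igf2 was at 0.82 without 2e. With only 4 members these medians are no result about the members as a group either.

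**Figure D3:**
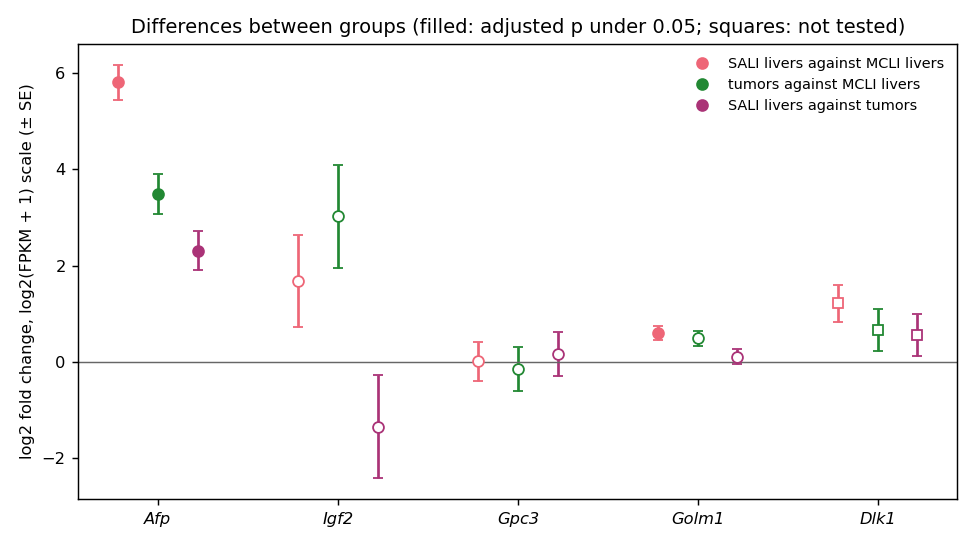
Log2 fold change of each member on the log2(FPKM + 1) scale (y axis) with its SE, for the 3 comparisons; filled points have an adjusted p under 0.05, and squares mark Dlk1, which was not tested. Afp is called in all 3 comparisons, at 5.81, 3.49 and 2.31, and the Gpc3 points lie within 1 SE of 0.

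The order of levels among the members changed with the group. In all 3 MCLI livers Gpc3 was the highest member, followed by Afp, Igf2, Golm1 and Dlk1 by mean FPKM, although Afp and Igf2 overlapped. In all 3 SALI livers Afp was the highest member. The tumors had different leading members, Igf2 in 2e (656) and Afp in 3e (177, just above Gpc3 at 157).

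Samples 2e and 3e differed in which oncofetal genes were high. Igf2 was 21.9-fold higher in 2e than in 3e, a difference of 4.41 on the log2(FPKM + 1) scale, and 0.0683% of all genes differed by as much. Dlk1 was 18.3-fold higher in 2e (1.34 on the log2 scale, on low values) and Afp 2.21-fold higher (1.14, which 5.12% of genes reached). Gpc3 was 3.99-fold higher in 3e, a difference of -1.97 that 1.33% of genes reached, and Golm1 1.30-fold higher in 3e (-0.35). Thus 3 of the 4 members past the floor differed by at least 1 between the 2 samples, as did 6.83% of all genes. This pair has no replicate and the differences were not tested. For scale, the within-group SD of the other 2 groups, pooled, was 0.48 for Afp, 0.67 for Igf2, 0.13 for Gpc3 and 0.16 for Golm1. Over all genes, the median range within a group was 0.29 for the 2 tumors, 0.29 for the 3 SALI livers and 0.20 for the 3 MCLI livers. A range tends to grow with the number of samples, so equal ranges of 2 and of 3 samples do not mean equal spread.

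Several other fetal and progenitor genes were higher in 3e. Spink1, a secreted trypsin inhibitor raised in hepatocellular carcinoma, was at 21.9 in 2e and 324 in 3e. Sox4, a transcription factor of embryonic progenitors, was at 5.06 and 40.9, and Epcam, an adhesion protein of progenitor cells, at 1.36 and 5.82. The RNA-binding protein gene Igf2bp1 was at 0.0169 in 2e and 0.782 in 3e, both under an FPKM of 1, and the imprinted gene Peg3 at 11.1 and 54.9. Of the 10 other imprinted genes past the floor, 2 were at least 1 higher in 3e and 0 in 2e, with a median difference of -0.05. Among the other fetal liver and oncofetal genes, some were higher in 2e. These were Igf2bp2 (0.765 and 0.523), Igf2bp3 (1.54 and 1.19), Hmga1 (0.426 and 0.170) and Tspan8 (1.52 and 0.505). Of the 6 other fetal liver and oncofetal genes past the floor, 3 were at least 1 higher in 3e and none in 2e. Over all 10244 genes, 375 were at least 1 higher in 3e and 325 in 2e. Dlk2, the relative of Dlk1, ran opposite to it, at 0.122 in 2e and 2.90 in 3e. Of the 11 relatives and partners of the members past the floor, 3 were at least 1 higher in 2e and none in 3e. The same 325 and 375 of all 10244 genes are the background. The 3 were Igfbp2 (234 and 25.7), Gpc1 (11.4 and 2.66) and Igf1 (33.5 and 13.7). The 8 markers of bile duct and progenitor cells summed to an FPKM of 35.6 in 2e and 359 in 3e, against 14.7 to 21.8 in the MCLI livers and 31.6 to 38.0 in the SALI livers, and none of the 8 was at 0 in a whole group. Spp1 made most of it, at 22.2 in 2e and 311 in 3e, and Sox9 was at 3.61 and 19.9. The 4 proliferation markers summed to 16.5 in 2e and 27.9 in 3e and to at most 1.95 in the 6 other samples. The part of these cells in the values of the members was not tested.

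**Figure D4:**
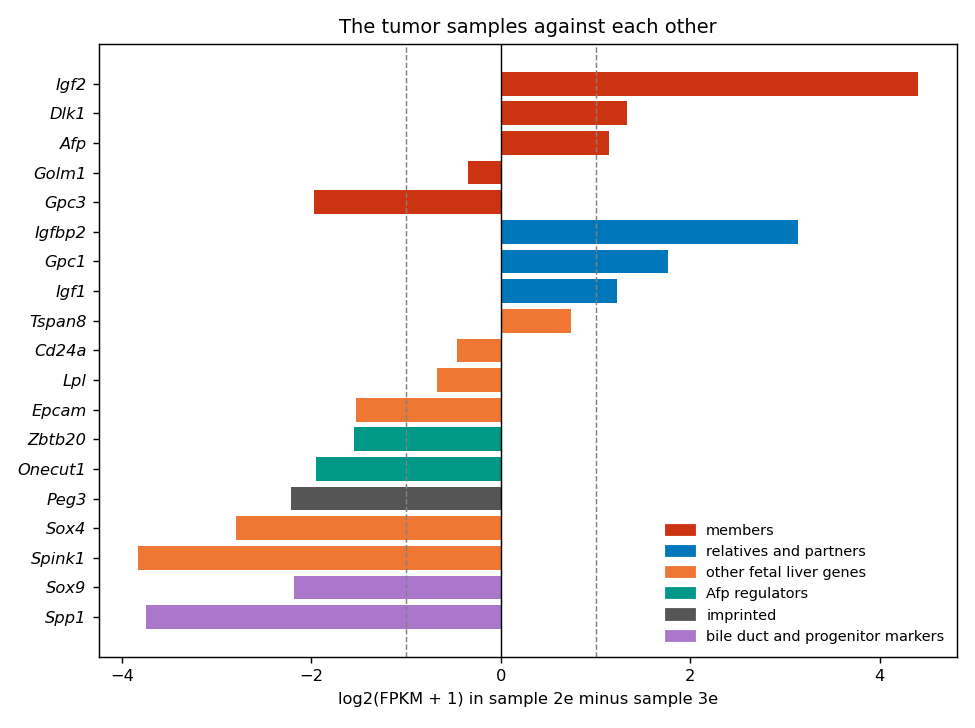
Difference between the tumors, 2e minus 3e, on the log2(FPKM + 1) scale (x axis) for the members and genes named beside them, coloured by list; dashed lines mark a difference of 1. Igf2 (4.41), Dlk1 and Afp extend to the side of 2e, and Gpc3 (-1.97), Sox4, Spink1 and Spp1 to the side of 3e.

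Over the list of 17 other fetal liver and oncofetal genes, 6 passed the floor. In SALI livers against MCLI livers, Epcam and Cd24a were counted as higher and Lpl as lower, with 3 not called, and the median log2 fold change was 1.17. The number of calls lay between 2 and 6 when 1 sample was left out, at 6 without 2e or 3e. Cd24a, a surface glycoprotein of progenitor cells, was at 0.635, 0.989 and 1.74 in the MCLI livers, 3.54 and 5.27 in the tumors and 41.3, 15.0 and 12.4 in the SALI livers, with no overlap between groups. It was 20.4-fold higher in the SALI livers than in the MCLI livers by mean (3.33 ± 0.41 on the log2 scale), and 2.75% of its sequence was shared. Epcam averaged 4.50 ± 1.46 against 0.529 ± 0.328 (SD, n = 3 each). Epcam in all MCLI livers, and Cd24a and Tspan8 in 2 of them, lay under an FPKM of 1. Epcam and Cd24a passed the floor only through the groups where they were high, so their calls are no support and no p is given. The medians and numbers of calls of this list include these genes and carry the same limit. Lpl, lipoprotein lipase, which the liver makes mainly before weaning, fell by 0.89 on the log2 scale, from 193 ± 20.4 to 106 ± 31.4 (limma adjusted p = 0.0219). In tumors against MCLI livers, Sox4 rose (2.35 ± 0.65, limma adjusted p = 0.0378), Epcam was counted as higher under the same limit (1.42 ± 0.42) and 4 were not called, with a median of 1.39. These 2 calls fell to 1 with median-ratio scaling, to 0 with quantile normalization and to between 0 and 3 when 1 sample was left out, with 0 calls without 1a, 2a, 3a, C097 or C098. Cd24a alone was counted as higher in SALI livers against tumors (1.96 ± 0.45). That count was 4 without 2e, 2 without 3e or C098 and 0 over genes of low shared sequence alone. The 11 other genes did not pass the floor, among them Lin28b, a fetal RNA-binding protein gene listed at 0 in both tumors.

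Igf2 acts through receptors and binding proteins. Of the 18 relatives and partners with a row, 11 passed the floor. In SALI livers against MCLI livers, Igfbp6, Igfbp5 and Igfbp3 were counted as higher, Igf1, Igfbp4 and Gpc4 as lower and 5 were not called, with a median of 0.49. Thus 3 of 11 were called higher and 3 of 11 lower, where 25.3% and 14.1% of all genes were, and in the tumors 1 of 11 was called higher, where 12.2% were. Igfbp6, a binding protein that prefers IGF-II over IGF-I, was at 0.981, 0.981 and 1.68 in the MCLI livers, 10.1 and 5.49 in 2e and 3e, and 69.6, 83.5 and 72.6 in the SALI livers. The groups did not overlap. It was 62.0-fold higher in the SALI livers than in the MCLI livers by mean (5.12 ± 0.21 on the log2 scale), and it was the only one of the 11 counted as called in the tumors against MCLI livers (1.96 ± 0.23). Igfbp5 averaged 2.57 ± 1.20 against 0.430 ± 0.161 (SD). It reached an FPKM of 1 only in the SALI livers and 3e. Both Igfbp6 and Igfbp5 passed the floor only through groups where they were high, so their calls are no support and no p is given. The median and the numbers of calls of this list include both genes and carry the same limit. Igfbp3 was 1.56-fold higher (limma adjusted p = 0.0475). Igf1, the growth factor of the adult liver, was at 19.3, 13.4 and 10.3 in the MCLI livers and 1.38, 5.93 and 3.68 in the SALI livers, with no overlap, and fell by 1.81 on the log2 scale (limma adjusted p = 0.0123). Igfbp4 fell by 0.90 (limma adjusted p = 0.0141) and Gpc4, a glypican like Gpc3, by 0.57 (limma adjusted p = 0.0100). Compared with tumors, Igfbp6, Igfbp2 and Igfbp5 were counted as higher and Igf1 and Gpc4 as lower in the SALI livers. These 5 calls fell to 2 at the lowest over the alternatives. The number of calls lay between 3 and 9 for SALI livers against MCLI livers when 1 sample was left out (3 without 1a), and between 1 and 5 for tumors against MCLI livers (5 without 2e), where a crossed replicate block, chosen after seeing the data, left 0. The receptor Igf2r, which clears IGF-II and is itself imprinted and counted with the imprinted genes, was at 5.55, 6.44 and 6.11 in the MCLI livers, 6.91, 12.9 and 10.8 in the SALI livers and 9.50 and 15.2 in the tumors. It was called in the tumors against MCLI livers (0.89 ± 0.25, limma adjusted p = 0.0424) and not in the SALI livers against MCLI livers (0.63 ± 0.23, limma adjusted p = 0.0551).

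Igf2 and Dlk1 are imprinted, and of the 20 other imprinted genes listed 10 passed the floor. In SALI livers against MCLI livers, Impact, a translation regulator, rose (41.3 ± 6.30 against 14.7 ± 1.36, SD, n = 3 each, limma adjusted p = 0.000151) and Cdkn1c, an inhibitor of the cell cycle from the imprinted domain next to that of Igf2, fell by 0.62 on the log2 scale (limma adjusted p = 0.0179). The number of calls in that comparison, 2, lay between 1 and 4 over the 18 alternatives. In tumors against MCLI livers, Igf2r rose, and Cdkn1c (-1.0, limma adjusted p = 0.0103), Grb10 (-0.83, limma adjusted p = 0.0233) and Dcn (-0.71, limma adjusted p = 0.0311) fell. Impact, Dcn and Grb10 were higher in the SALI livers than in the tumors, and Mest was counted as lower but passed the floor only with the tumors. The list median was -0.04, -0.06 and 0.04 in these comparisons. Peg3 stood at 27.3, 15.5 and 23.1 in the SALI livers and at 12.9, 12.7 and 11.3 in the MCLI livers, which did not overlap but did not pass the test (0.76 ± 0.48, limma adjusted p = 0.237). The number of calls in the tumors against MCLI livers lay between 1 and 7 when 1 sample was left out, at 7 without 2e and at 1 without 3e, 1a, 2a or 3a, and was 0 with the replicate number as a block.

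Afp lies in a cluster with the genes of the albumin family, and the 2 relatives that could be tested moved the other way in the SALI livers. Afm, which encodes afamin, a vitamin E carrier, was at 48.0, 37.0 and 31.2 in the MCLI livers, 78.0 and 111 in the tumors and 4.26, 16.8 and 8.98 in the SALI livers. The groups did not overlap, and Afm fell by 2.0 ± 0.39 SE on the log2 scale in the SALI livers against MCLI livers (limma adjusted p = 0.00490) and by 3.26 ± 0.44 against tumors (limma adjusted p = 0.000994). In tumors against MCLI livers it differed by 1.26 ± 0.44 (limma adjusted p = 0.0740). Gc, which encodes the vitamin D binding protein, was at 2888 ± 301 (SD, n = 3) in the MCLI livers, 1593 ± 160 (n = 3) in the SALI livers and 3494 ± 524 (n = 2) in the tumors. It fell by 0.86 in the SALI livers against MCLI livers (limma adjusted p = 0.00886) and by 1.13 against tumors (limma adjusted p = 0.00520). With quantile normalization 1 of the 2 was called in the SALI livers against MCLI livers.

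Afp is silenced after birth by repressors and driven by liver transcription factors, and 9 of the 10 regulators listed passed the floor. None was called higher and Cebpa alone was called lower in the SALI livers against MCLI livers, with a list median of -0.07. Cebpa, an activator of adult hepatocyte genes, fell by 0.47 ± 0.12 SE on the log2 scale (limma adjusted p = 0.0127). Zhx2, known as a postnatal repressor of Afp, was at 2.23, 1.86 and 1.83 in the MCLI livers, 1.90, 2.02 and 1.57 in the SALI livers, and 3.40 and 4.02 in the tumors. It was higher in the tumors than in the MCLI livers (0.66 ± 0.13, limma adjusted p = 0.0131) and lower in the SALI livers than in the tumors (-0.73 ± 0.13, limma adjusted p = 0.00382), while SALI livers against MCLI livers gave -0.07 ± 0.12 (limma adjusted p = 0.652). Zbtb20, a further repressor, was at 8.67 in 3e and between 1.96 and 4.26 in the other samples, and none of its comparisons passed (limma adjusted p between 0.156 and 0.418). Zfhx3 did not pass the floor and lay between 0.348 and 0.809. Foxa3 was called higher in the tumors than in the MCLI livers (1.20 ± 0.28, limma adjusted p = 0.0217), with a list median of 0.16. Against the tumors, Onecut1, Foxa3, Zhx2 and Cebpa were lower in the SALI livers and the median was -0.41, and 52.3% of the sequence of Onecut1 was shared. Leaving out 1 sample moved the calls to between 0 and 2 in the first comparison (0 without 2a, 2 without 2e or 3e), 0 and 3 in the second (0 without 3a, 1 without 2a) and 2 and 5 in the third (2 without 3e, C096 or C098).

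**Figure D5:**
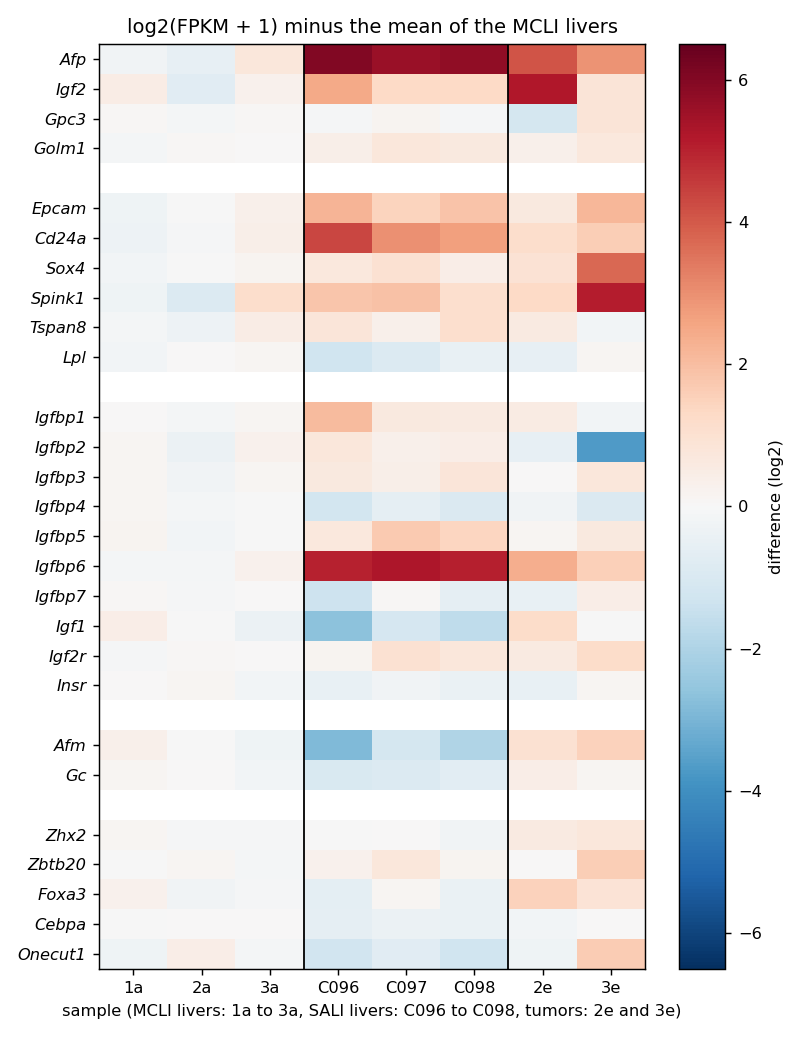
Log2(FPKM + 1) of each sample minus the mean of the MCLI livers (colour) for the members past the floor, the other fetal liver genes, the insulin-like growth factor genes, the albumin family and regulators of Afp (rows), with samples in columns and black lines between groups. Afp and Igfbp6 are dark red in all 3 SALI livers, Afm is blue in them, while Igf2 is dark red in 2e alone and Spink1 in 3e alone.

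The genes nearest to each member over the 8 samples were found by the root-mean-square difference of centred log2(FPKM + 1) among 8222 or 8223 genes with at most 2% shared sequence. Nearest to Afp were Igfbp6 (0.66), Plat (0.97) and Fabp4 (0.97), where the values of Afp themselves deviated by 2.57 from their mean. Fabp4 averaged 5.64 in the MCLI livers and 152 in the SALI livers and was at 15.8 and 15.6 in 2e and 3e. Nearest to Igf2 were Tff3 (0.84), Apoa4 (0.84) and Atf3 (0.86), against a deviation of 1.69. Tff3, a trefoil peptide gene, was at 227 in 2e and 11.7 in 3e, and Apoa4, an apolipoprotein gene, at 3800 and 83.0. Nearest to Gpc3 were Pdilt (0.15), Gclc (0.18) and Brd2 (0.19), against 0.51, and Gclc, which makes the first step of glutathione synthesis, was at 313 in 2e and 1238 in 3e. Nearest to Golm1 were Tpp2, Peak1 and Ano6 (each 0.06), against 0.31. Likeness over 8 samples in 3 groups is given as a description.

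Markers of cell types also differed between the groups. The 10 hepatocyte markers summed to an FPKM of 10227 to 12063 in the MCLI livers, 4939 to 6836 in the SALI livers and 6356 to 9053 in the tumors, and 5 of the 10 were called lower and none higher in the SALI livers than in the MCLI livers. In the tumors 1 was called higher, Apob (472 against 253 by mean), and 2 lower, Cyp2e1 (253 against 1716) and Hpd (291 against 605). Tat, Cps1, F2 and Hnf4a also had higher means in the tumors than in the MCLI livers, without passing the test. These were 451 against 296, 621 against 509, 471 against 329 and 102 against 91.6. For Tat and Cps1 this came from 2e (665 and 886), as 3e (236 and 356) lay below the MCLI means. Pck1 (322 against 668), Ttr (4163 against 5794) and Tdo2 (559 against 649) had lower means in the tumors, also without passing. The 6 macrophage markers summed to between 78.9 and 116 in 7 samples and to 290 in C097, and none of the 6 was called in any comparison. In C097, Afp (1147) and Igf2 (41.5, close to 41.9 in C098) were the lowest and Gpc3, Golm1 and Dlk1 the highest of their group. Of the 6 bile duct and progenitor markers past the floor, Spp1 was called higher in the tumors than in the MCLI livers. Epcam and Sox9 were counted as higher too, but lay under an FPKM of 1 in all MCLI livers and passed the floor only through the other groups. Stellate cell and fibroblast markers, all 6 with a row, summed to 11.5 to 15.2 in the MCLI livers, 9.26 to 19.1 in the SALI livers and 19.9 to 36.9 in the tumors. Within this list Col3a1 was called lower in the SALI livers (1.10 against 3.32) and higher in the tumors (12.2) than in the MCLI livers, and Lrat averaged 7.68 in the SALI livers, 4.52 in the MCLI livers and 2.39 in the tumors. The 4 endothelial markers summed to 17.7 to 22.1 in the MCLI livers, 12.1 to 21.6 in the SALI livers and 14.6 to 15.1 in the tumors. Stab2 and Kdr were called lower in both the SALI livers and the tumors than in the MCLI livers, and Lyve1 higher in the SALI livers. The part of cell composition in the members' values was not tested.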

How the data were processed

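Expression was measured by RNA sequencing of 8 samples, grouped by the treatment labels. The authors deposited FPKM values per Ensembl gene (22504 genes, 22314 with a symbol), with 0 columns of other samples. The submitters' processing notes name Bowtie 0.12.2 and the build mm8; the counter, annotation and strand setting were not given in the sources used here. Depth is unknown, so no counting interval is given. The 3 groups were fitted together to log2(FPKM + 1) in R 4.3.3 with limma 3.58.1 (lmFit, eBayes with trend, two-sided), over genes that reached an FPKM of 1 in 4 or more samples, with Benjamini-Hochberg adjustment over all 10244 genes and a threshold of 0.05. The test was tested on simulated data. A mean or fold is of FPKM, ± is SD for means and SE for log2 fold changes. Shared sequence is the percentage of 50-base windows of GENCODE M21 transcripts found in another gene, computed in Python 3.11.15. Promoters came from RefSeq (GRCm38.p6); the build differs from mm8, so no coordinates were joined to the table. The members and lists were chosen with earlier results of these data known. Named genes were the members, up to 3 called genes per list and comparison, the nearest 3 genes of each member, Zhx2, Zbtb20, Zfhx3 and the albumin family; other genes were named after their values were seen. Alternatives were a pseudocount of 0.1, other floors, 3 scalings, eBayes without a trend, only the compared groups, only genes with at most 2% shared sequence, each sample left out, and a replicate block. H19 was not analysed here. One regulator of Afp was left out of the list and is not reported here.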

Additional observations from a re-analysis of the deposited data

How the results depend on the processing

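Over the 4 members tested and 3 comparisons, 201 of 221 alternative values kept their direction and side of the threshold, 1 lost a call, 8 gained one in the same direction and 11 changed sign, of which 2, both of Gpc3 without 2e, became calls. Every alternative kept the 3 calls of Afp, with log2 fold changes of 5.55 to 6.17, 2.92 to 4.06 and 1.74 to 2.88. With 1 sample left out, the members called numbered 1 to 3 in each comparison, and the ranges that crossed 0 were -0.0694 to 0.0604, -1.14 to 0.83 and -0.82 to 1.15 for Gpc3, -0.00612 to 1.33 and -0.11 to 1.22 for Dlk1 (tumors against MCLI livers, then SALI livers against tumors), and -3.55 to 0.86 for Igf2 and -0.0680 to 0.28 for Golm1 in SALI livers against tumors. Gpc3 in SALI livers against MCLI livers was -0.15 with median-ratio scaling, -0.12 with that scaling over genes of low shared sequence and -0.0088 with quantile normalization, which also gave 0.0311 and -0.0399 in the other comparisons. Between 2e and 3e, Gpc3 differed by -1.78 with median-ratio scaling and -2.21 with quantile normalization, Golm1 by -0.18 with median-ratio scaling and Dlk1 by 3.25 with a pseudocount of 0.1, which also gave Dlk1 differences of 3.04, 1.67 and 1.37 between groups.

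The replicate numbers 2 and 3 of MCLI livers and tumors belong to different mice, and the difference between them correlated at -0.19 across 10244 genes. A correlation from so few samples cannot decide whether the number also marks samples processed together. The main fit did not use the number. With the number as a replicate block, 1 member (Afp, 3.39) was called in tumors against MCLI livers, and 252 rather than 1962 of all genes. A crossed replicate block, chosen after seeing the data, called 1 member and 16 genes. Leaving out 1 sample moved the genes called in that comparison to between 677 (without 1a) and 3702 (without 2e), with 720 without 3a and 941 without 2a, and those in SALI livers against MCLI livers from 4034 to between 2469 (without 1a) and 5189. In SALI livers against tumors, 3356 genes became 1996 when only the compared groups were fitted. The 2 tumors, unknown depth and the code series limit all values.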
